A study of Mus musculus with 42 samples.

Results

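The 5 genes described here are Ahr, Arnt, Hif1a, Epas1 and Ahrr, which encode the aryl hydrocarbon receptor, its dimerization partner, the alpha subunits of the hypoxia-inducible factors HIF-1 and HIF-2, and the repressor of the receptor. They were chosen by name, with a pattern of their levels in these data already known, from the 19752 gene symbols of the array. The levels below are therefore a description of genes picked on measured values of the same arrays. The rule took, for each symbol, the transcript cluster (the set of probes that reads 1 gene) of highest mean intensity. Each symbol had 1 cluster, so the mean decided nothing. Ahr, Arnt, Hif1a and Epas1 were among the 12425 genes brighter than their array's median on at least 2 arrays, which were tested; Ahrr was not.

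The arrays read RNA of splenic CD4+ T cells of NOD mice carrying the Foxp3-IRES-GFP reporter (written Foxp3-IREs-GFP+/+ for the cultures), in which green fluorescent protein marks cells that express Foxp3. Conventional T cells (Tconv, GFP-) and regulatory T cells (Treg, GFP+) were sorted as negative for B220, CD8a, CD11b and CD11c. In vivo, the anti-CD3 antibody KT3, which engages the T cell receptor complex, was injected intravenously into females of 8 weeks. Cells were taken 2, 8, 24 and 72 h later, from untreated mice at 0 h, and 24 h after intravenous rat IgG. In vitro, splenocytes were cultured with KT3 at 1.25 µg/ml for 0, 2, 8, 24 and 72 h before the sort. Each of the 20 groups of cell type, setting and time held 2 arrays and each IgG group 1 array, numbered 2. In culture, the arrays numbered 1 came from females of 9 weeks and those numbered 2 from males of 14 weeks, so sex and age go with the number there. The labels do not say whether arrays of an in vivo group came from separate mice, so p-values measure the spread between these samples only. In both settings KT3 met the T cells among the other cells of the spleen, and the IgG controls are of mice, not cultures.

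All 5 proteins belong to the bHLH-PAS family of transcription factors, which act as dimers. AHR waits in the cytoplasm with HSP90 chaperones until a ligand such as a dioxin or a tryptophan derivative binds, then pairs with ARNT in the nucleus and switches on genes such as Cyp1a1 and Ahrr, whose product competes for ARNT. HIF-1 alpha and HIF-2 alpha are hydroxylated by the EGLN enzymes and degraded through the VHL complex when oxygen is ample, and otherwise also pair with ARNT; in T cells HIF-1 alpha is known for driving glycolysis, and Epas1 is best known from endothelium.

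The stretches upstream of Hif1a and Ahrr are shown because, of the 3 such stretches found in the promoter table, they hold the most matches to the core letters searched. These were GCGTG, searched for AHR with ARNT, and ACGTG, searched for HIF with ARNT. Only 1 core form was searched per dimer, so a match does not assign a stretch to 1 dimer. They are the 250 bases before a RefSeq transcript start (GRCm38.p6), 5′ to 3′ on the gene's strand, with these cores, and the longer form TNGCGTG of the first, in capitals where found on either strand.
Hif1a, chr12:73907617-73907866, + strand: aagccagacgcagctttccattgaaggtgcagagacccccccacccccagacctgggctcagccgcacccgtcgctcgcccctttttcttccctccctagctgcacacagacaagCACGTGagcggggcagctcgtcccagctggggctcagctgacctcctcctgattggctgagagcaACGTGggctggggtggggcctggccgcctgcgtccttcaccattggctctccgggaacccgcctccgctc
Ahrr, chr13:74292332-74292581, - strand: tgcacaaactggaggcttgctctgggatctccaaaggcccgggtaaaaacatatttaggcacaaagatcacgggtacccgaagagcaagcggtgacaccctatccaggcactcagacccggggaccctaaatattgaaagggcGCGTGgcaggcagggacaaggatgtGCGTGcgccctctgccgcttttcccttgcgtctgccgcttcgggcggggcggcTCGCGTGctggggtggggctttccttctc
The Hif1a stretch held ACGTG at 3 places, 2 of them the opposite strands of 1 palindrome, and no GCGTG. The Ahrr stretch held GCGTG at 3 places, 1 of them inside a match to the longer TNGCGTG. The Arnt stretch held 1 GCGTG. The Hif1a start used is that of 1 transcript and lies inside the RefSeq span of the gene, which begins upstream of the stretch. Among 32851 RefSeq promoter windows of this length, 28.2% held GCGTG. The HIF core ACGTG was in 16.6% of them. The longer TNGCGTG was in 4.10%. The table of promoters matched 3 of the 5 genes. Such a match is a description of the letters, not a binding site.

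Array quality bears on several of these genes and comes first. Foxp3 (log2 intensity) lay between 7.02 and 8.20 on all 21 Tconv arrays and between 11.30 and 12.34 on the 21 Treg arrays, the in vitro Treg arrays included, although the labels give the gate of those as GFP-. Array medians of intensity ran from 87.6 to 116. The array Tconv in vitro 0 h number 1 stood apart: the interquartile range of its log2 values was 1.64 against 2.10 to 3.21 on the others, its mean correlation with the others was 0.77 against at least 0.91, and its summed T cell marker intensity was the lowest, at 5599. The next lowest sum was 6900, on Tconv in vitro 8 h number 1, and the others were at least 8368. The array that stood apart lies below its partner for Arnt and Hif1a and above it for Ahr, Epas1 and Ahrr. Without it, the standard error of a difference of 2 groups goes from 0.32 to 0.20 for Arnt and from 0.52 to 0.33 for Hif1a, so results are given with it and without it. In vivo, arrays numbered 1 (9 of 10 single sorted) held more macrophage marker signal than those numbered 2 (10 of 12 double sorted), with sums of 656 to 2508 against 327 to 393 over 6 genes, and more B cell marker signal, with sums of 420 to 1163 against 187 to 340 over 4 genes. Neutrophil markers separated the numbers as well, with sums of 476 to 2971 against 245 to 314 over 5 genes, as did platelet markers, with sums of 371 to 764 against 236 to 298 over 4 genes. Their part in the results was not tested, and differences within each number are given where they bear on a result. In bulk samples, fewer cells of a type and less RNA per cell cannot be told apart.

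**Figure D1:**
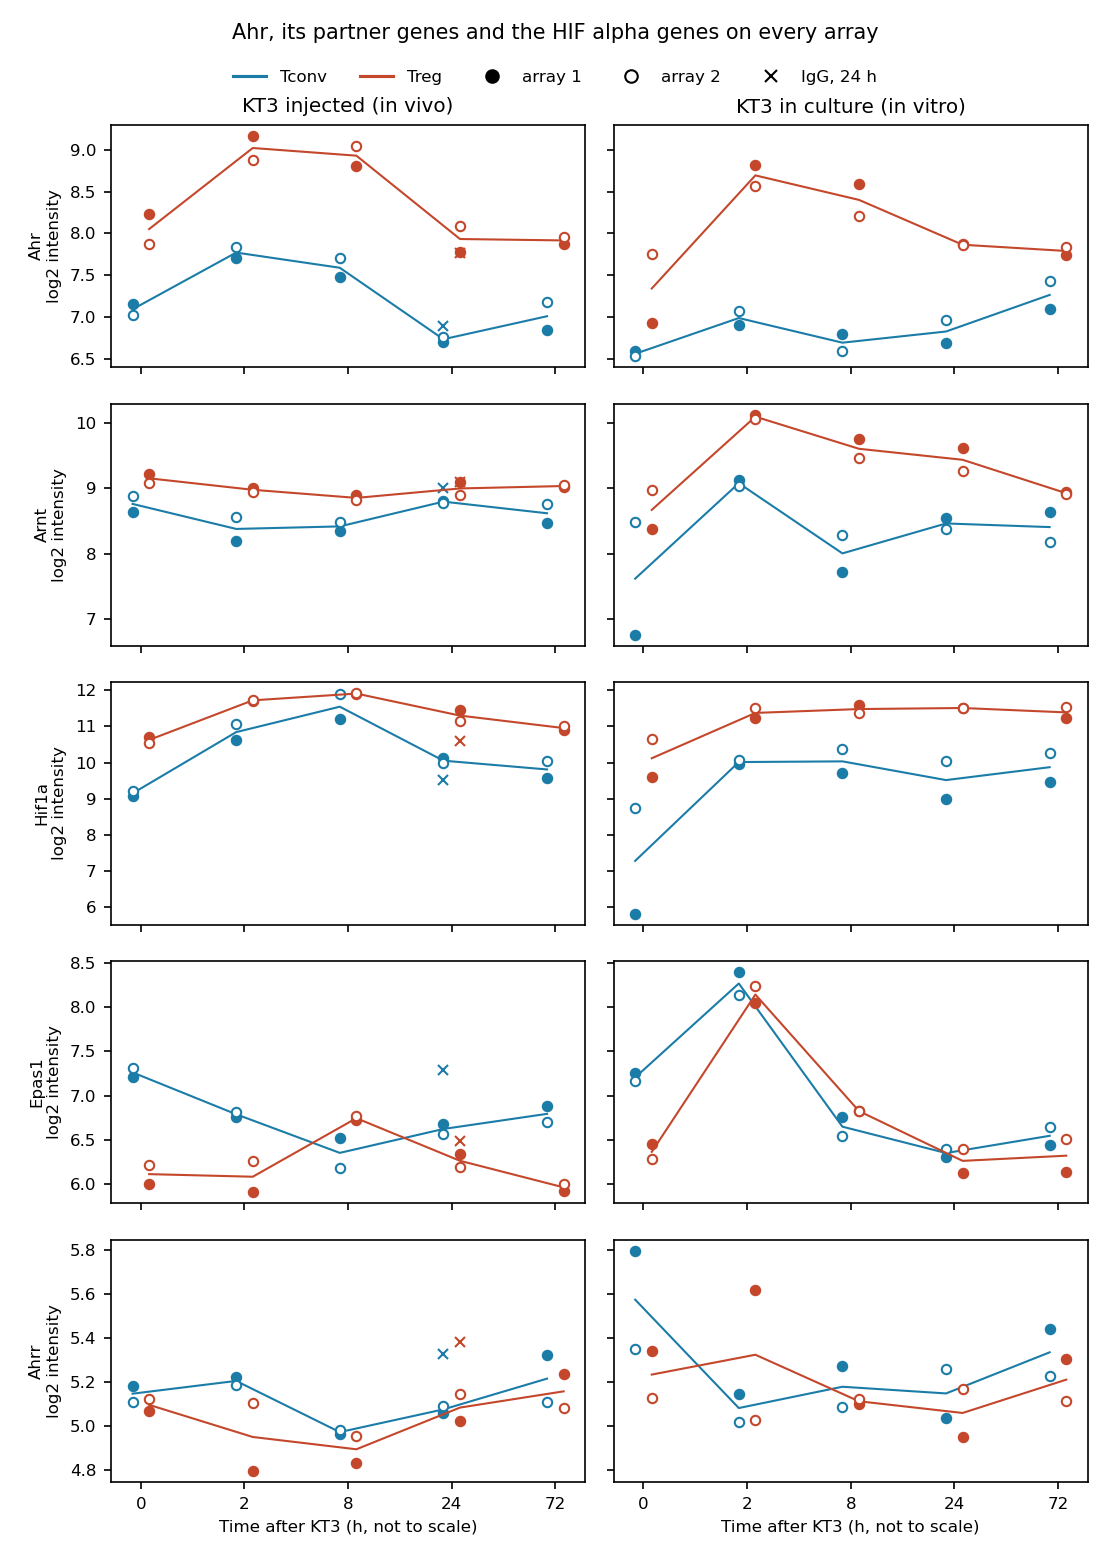
Log2 intensity of the 5 genes on every array against time after KT3 (categories, not to scale), in vivo on the left and in vitro on the right. Blue is Tconv and red Treg, filled circles are arrays numbered 1, open circles arrays numbered 2, crosses the IgG arrays, and lines join group means; Ahr runs higher in Treg at every time, Epas1 peaks at 2 h in vitro, and Tconv in vitro 0 h number 1 is low for Arnt and Hif1a.

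Ahr, the ligand-activated receptor, was higher in Treg than in Tconv at all 5 times in vivo and, in vitro, at 0 to 24 h, by 0.78 to 1.71 on the log2 scale. In Treg it rose within 2 h of KT3 in both settings, and at 24 h in vivo it differed from 0 h by -0.12. In Tconv of injected mice, Ahr read 7.16 and 7.03 at 0 h, 7.71 and 7.83 at 2 h, 7.48 and 7.70 at 8 h, 6.70 and 6.76 at 24 h, and 6.84 and 7.18 at 72 h (log2 intensity, arrays 1 and 2). In Treg of those mice, it read 8.23 and 7.88 at 0 h, 9.17 and 8.88 at 2 h, 8.81 and 9.05 at 8 h, 7.78 and 8.09 at 24 h, and 7.88 and 7.96 at 72 h. Every Treg array thus lay above every Tconv array of its time, and the lowest in vivo Treg value, at 24 h, lay below the highest Tconv value, at 2 h. In culture, Tconv read 6.59 and 6.53 at 0 h, 6.91 and 7.07 at 2 h, 6.79 and 6.59 at 8 h, 6.68 and 6.97 at 24 h, and 7.09 and 7.44 at 72 h. Treg in culture read 6.93 and 7.76 at 0 h, 8.82 and 8.57 at 2 h, 8.59 and 8.21 at 8 h, 7.87 and 7.86 at 24 h, and 7.74 and 7.84 at 72 h. The Treg 0 h arrays of the culture differed by 0.83, the widest gap of any pair for Ahr, while the groups still did not overlap with Tconv at any time. With 2 arrays per group such a lack of overlap is a weak sign, and its share over all genes was not counted.

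The highest group mean of Ahr was that of Treg in vivo at 2 h (9.02) and the lowest that of Tconv in vitro at 0 h (6.56). Among the 21 pairs of neighbours in the order of the 22 group means, 5 did not overlap, and in 0 of them did the means differ by more than the fitted standard deviation of 0.22. Among neighbours that did overlap, the widest gap of means was 0.35, between Treg in vitro 8 h and Treg in vivo 0 h. Sorting 22 means sets close values side by side, so this order cannot show whether the levels form separate classes.

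By limma's moderated test with Benjamini-Hochberg adjustment over 12425 genes, called here where the adjusted p is under 0.05, the Treg minus Tconv difference of Ahr in vivo was 0.96 ± 0.22 at 0 h (log2, standard error; adjusted p = 0.00852), 1.25 at 2 h (adjusted p = 0.000496) and 1.34 at 8 h (adjusted p = 0.000224). It was 1.20 at 24 h (adjusted p = 0.000924) and 0.91 at 72 h (adjusted p = 0.0135). A difference of 1.34 is a 2.53-fold higher intensity. Of all genes tested, 3.1%, 3.45%, 4.27%, 3.2% and 3.6% were called in either direction at these 5 times. Within arrays numbered 1 the difference ran from 1.04 to 1.46 and within those numbered 2 from 0.78 to 1.35. The calls at 2, 8 and 24 h were kept without any 1 array. The 0 h call was lost without either Tconv array or Treg number 1. The 72 h call was lost without Tconv number 1 or either Treg array.

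In culture the difference was 0.78 at 0 h (adjusted p = 0.0273), 1.71 at 2 h (adjusted p = 8.43e-06), 1.71 at 8 h (adjusted p = 3.55e-06) and 1.04 at 24 h (adjusted p = 0.00228), and 0.53 at 72 h, which missed the threshold (adjusted p = 0.114). Of all genes, 11.2%, 3.27%, 23.8%, 21.3% and 10.3% were called in either direction at the 5 times. The 0 h call was lost without the array that stood apart (0.81, adjusted p = 0.172) or without Treg number 2, and the 24 h call without Tconv number 1.

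After KT3, Ahr in Treg rose by 0.97 ± 0.22 at 2 h in vivo (adjusted p = 0.00489), and by 0.88 at 8 h (adjusted p = 0.00976). Of all genes, 6.45%, 9.67%, 0.483% and 0.0241% were called in Treg in vivo at 2, 8, 24 and 72 h. In culture it rose in Treg by 1.35 at 2 h (adjusted p = 0.000149) and by 1.06 at 8 h (adjusted p = 0.00304), among 5.64%, 5.61%, 5.95% and 9.11% of genes called at the 4 times. The in vivo calls were lost without Treg 0 h number 2, the 2 h call also without Treg 2 h number 1 and the 8 h call also without Treg 8 h number 2. The 8 h call in culture was lost without Treg 0 h number 1 or Treg 8 h number 1. The difference there was 1.67 within number 1 and 0.46 within number 2.

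In Tconv in vivo, the Ahr difference from 0 h was 0.68 at 2 h (adjusted p = 0.0899) and 0.50 at 8 h (adjusted p = 0.11), neither called. Of all genes, 3.51%, 21%, 2.4% and 0.29% were called in Tconv in vivo at 2, 8, 24 and 72 h. In Tconv in vitro it rose at 72 h alone, by 0.70 (adjusted p = 0.0463), among 26.3%, 18.9%, 26.8% and 7.55% of genes called at the 4 times. That call was lost without the 0 h array that stood apart or either 72 h array. The Treg and Tconv responses of Ahr were called different at 0 of 8 comparisons by limma, with 2 at an unadjusted p under 0.05 (2 h and 8 h in vitro: 0.93 ± 0.31 each). Over all genes, 0.0483%, 0.233%, 0.0644% and 0.0161% were called in these comparisons in vivo, and 0.145%, 0.652%, 0.491% and 1.79% in vitro. The in vitro and in vivo responses of Ahr were called different at 0 of 8, with 2 at an unadjusted p under 0.05.

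**Figure D2:**
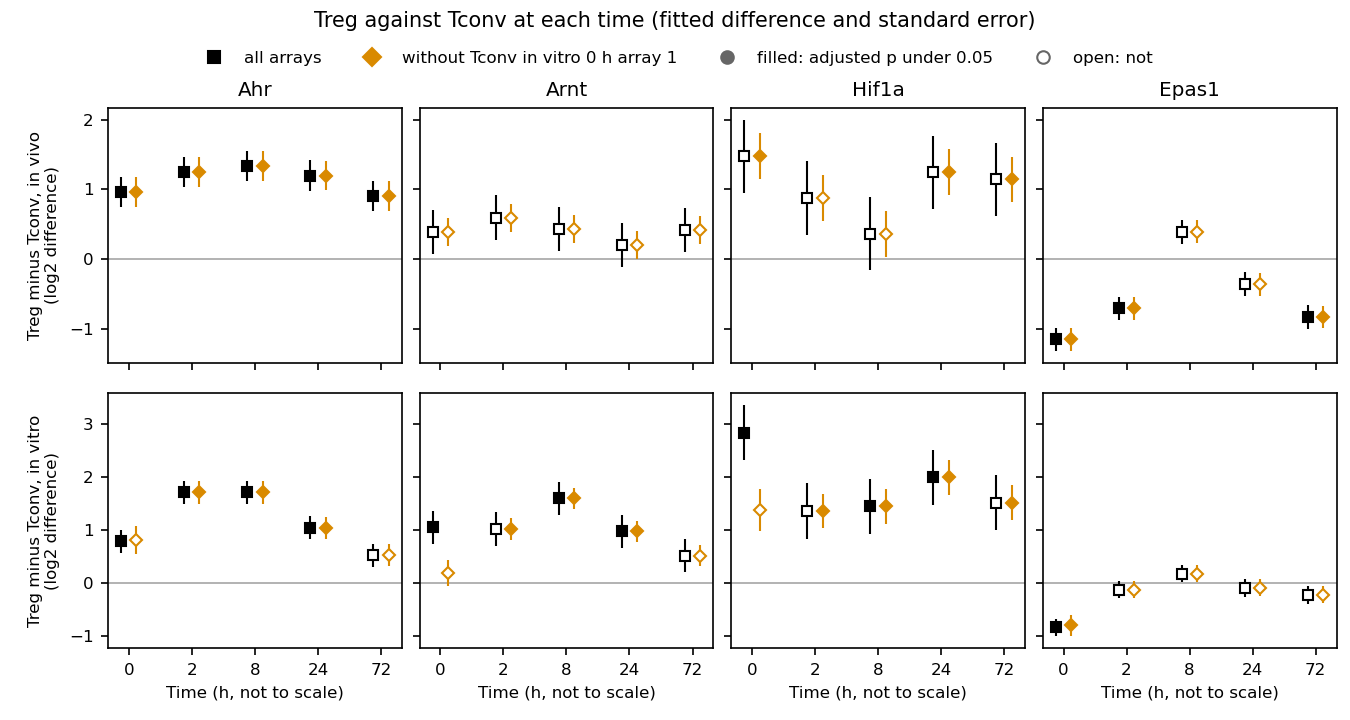
Fitted Treg minus Tconv difference (log2, bars are standard errors) of the 4 tested genes at each time, in vivo above and in vitro below. Black squares use all arrays and orange diamonds leave out Tconv in vitro 0 h number 1, with filled symbols for an adjusted p under 0.05; Ahr lies above 0 throughout, Epas1 lies below 0 at 0 h in both settings (-1.15 in vivo and -0.84 in vitro) and, in vivo, also at 2 h (-0.71) and 72 h (-0.83), and Hif1a and Arnt at 0 h in vitro drop without that array.

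Arnt, the shared partner, was not called changed in vivo and rose at 2 h in Treg in culture. Tconv in vivo read 8.64 and 8.88 at 0 h, 8.19 and 8.56 at 2 h, 8.35 and 8.49 at 8 h, 8.81 and 8.78 at 24 h, and 8.47 and 8.76 at 72 h (log2 intensity). Treg in vivo read 9.21 and 9.09 at 0 h, 9.01 and 8.94 at 2 h, 8.89 and 8.81 at 8 h, 9.09 and 8.90 at 24 h, and 9.02 and 9.05 at 72 h. The Treg arrays lay above the Tconv arrays of the same time throughout. Cultured Tconv read 6.76 and 8.48 at 0 h, 9.12 and 9.03 at 2 h, 7.73 and 8.28 at 8 h, 8.55 and 8.38 at 24 h, and 8.63 and 8.18 at 72 h. Cultured Treg read 8.37 and 8.97 at 0 h, 10.12 and 10.06 at 2 h, 9.75 and 9.45 at 8 h, 9.61 and 9.26 at 24 h, and 8.94 and 8.90 at 72 h. The 2 h arrays were the highest of each cell type in culture, and the Tconv 0 h arrays differed by 1.71.

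Of the 8 in vivo responses of Arnt, 0 were called by limma and 0 reached an unadjusted p under 0.05, and the differences ran from -0.38 to 0.03. In culture, Arnt in Treg rose by 1.42 ± 0.32 at 2 h (adjusted p = 0.00558), which is 2.68-fold, and by 1.75 and 1.09 on the arrays numbered 1 and 2. That call was lost without Treg 0 h number 1 or Treg 2 h number 1. Without the array that stood apart, its adjusted p was 2.19e-05, and the Treg differences at 8 h (0.93) and 24 h (0.76) were called too (adjusted p = 0.0031 and 0.013). In Tconv in vitro, Arnt was 1.46 higher at 2 h with all arrays (adjusted p = 0.00251) and 0.60 higher without that array (adjusted p = 0.204), where 4.98% of genes were called. At 24 h the Tconv difference was 0.84 (adjusted p = 0.0503), called with the array number as a block (adjusted p = 0.0454), and -0.02 without that array.

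The 2 h response of Arnt was larger in culture than in injected mice, by 1.60 ± 0.45 in Treg (adjusted p = 0.0431) and by 1.84 in Tconv (adjusted p = 0.0196). Over all genes, 3.68%, 0.362%, 0.0966% and 1.58% were called for this difference of settings in Treg at the 4 times, and 5.04%, 0.491%, 1.05% and 0.0885% in Tconv. The Treg value was 1.60 with an adjusted p of 0.000736 without the array that stood apart, and it lost its call in 25 of the 42 single omissions and under quantile normalization. The Tconv value was 0.98 without that array (adjusted p = 0.142), and its call was also lost without Tconv in vivo 2 h number 1, Tconv in vivo 0 h number 2 or Tconv in vitro 2 h number 1. Without the array that stood apart, the Treg response also exceeded the Tconv response at 8 h in vitro, by 1.40 (adjusted p = 0.021), against 0.55 with all arrays (adjusted p = 0.769).

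Between cell types, Arnt was higher in Treg in culture by 1.59 ± 0.32 at 8 h (adjusted p = 0.000904), a call kept under all settings tried, and by 0.97 at 24 h (adjusted p = 0.0329), which was lost without any 1 of its 4 arrays and under quantile normalization. At 0 h the value was 1.05 (adjusted p = 0.0391) and 0.19 without the array that stood apart, and that call was also lost without Treg number 2. In vivo the 5 differences ran from 0.20 to 0.60, with 0 called by limma and 0 at an unadjusted p under 0.05. The lack of overlap of Treg and Tconv arrays given above was not compared with its share over all genes.

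Ahrr, the repressor whose promoter is shown above, lay between 4.79 and 5.80 (log2 intensity) and was under the array median on all 42 arrays, so it was not tested. Its lowest group mean was 4.89 (Treg in vivo 8 h) and its highest 5.57 (Tconv in vitro 0 h), and 0 of the 21 neighbouring pairs of group means were free of overlap. The 2 arrays of Treg in vitro 2 h differed by 0.59. Neighbours in a sorted order lie close by construction, so this order cannot show whether Ahrr differed by cell type, setting or time.

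Hif1a, the HIF-1 alpha subunit, rose after KT3 in Tconv of injected mice and stood higher in Treg than in Tconv on every pair of arrays of the same time. The share of all genes with such a lack of overlap was not counted. Tconv in vivo read 9.09 and 9.21 at 0 h, 10.62 and 11.07 at 2 h, 11.19 and 11.90 at 8 h, 10.12 and 9.99 at 24 h, and 9.56 and 10.06 at 72 h (log2 intensity). Treg in vivo read 10.71 and 10.54 at 0 h, 11.70 and 11.74 at 2 h, 11.90 and 11.92 at 8 h, 11.46 and 11.14 at 24 h, and 10.90 and 11.01 at 72 h. Both cell types were highest at 8 h, where the upper Tconv array lay 0.02 below the Treg array of its number. The closest values there were 11.8969 on Tconv number 2 and 11.8982 on Treg number 1, nearly equal. Tconv in culture read 5.83 and 8.74 at 0 h, 9.95 and 10.08 at 2 h, 9.70 and 10.36 at 8 h, 8.98 and 10.05 at 24 h, and 9.47 and 10.27 at 72 h. Cultured Treg read 9.59 and 10.65 at 0 h, 11.23 and 11.52 at 2 h, 11.60 and 11.36 at 8 h, 11.52 and 11.50 at 24 h, and 11.23 and 11.55 at 72 h. The 2 Tconv 0 h arrays in culture differed by 2.91, the widest gap of any pair for these genes, and the Treg arrays in culture stayed between 11.23 and 11.60 from 2 h to 72 h.

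In Tconv in vivo, Hif1a rose by 2.40 ± 0.52 at 8 h (adjusted p = 0.00153), a 5.26-fold higher intensity, with 2.11 and 2.68 on the arrays numbered 1 and 2. This call was kept under all settings tried. At 2 h the difference was 1.69 (adjusted p = 0.0779), and the adjusted p was 0.0197 with the array number as a block and 0.00144 without the array that stood apart. Without that array, 7.35%, 28%, 3.25% and 0.459% of genes were called in Tconv in vivo. At 24 h and 72 h it was 0.90 and 0.66, not called either way.

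In Treg in vivo the Hif1a differences were 1.09 at 2 h and 1.28 at 8 h, between 0.99 and 1.37 within each number. Their adjusted p was 0.296 and 0.144 with all arrays, and 0.0305 and 0.00789 without the array that stood apart, where 10.6%, 15%, 0.813% and 0.0322% of genes were called. In Treg in vitro they were 1.25 at 2 h, 1.36 at 8 h, 1.39 at 24 h and 1.27 at 72 h, with 0 of the 4 called with all arrays and 4 of 4 at an unadjusted p under 0.05. With the array number as a block, the 24 h value was called (adjusted p = 0.0435). All 4 were called without the array that stood apart (adjusted p of 0.006 to 0.0126), where 11%, 11.3%, 14.2% and 16.4% of genes were. Tconv in vitro differed from 0 h by 2.73, 2.75, 2.23 and 2.59 at 2, 8, 24 and 72 h, all called. Without that array the values were 1.27, 1.29, 0.78 and 1.13, of which the 8 h value was called (adjusted p = 0.0386). Then 4.98%, 10.3%, 1.29% and 1.08% of genes were called. The calls at 24 h and 72 h were also lost without array 2 of the later time.

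The Treg minus Tconv difference of Hif1a in vivo was 1.48 at 0 h, 0.88 at 2 h, 0.36 at 8 h, 1.25 at 24 h and 1.14 at 72 h. None of the 5 was called with all arrays, with 3 at an unadjusted p under 0.05; without the array that stood apart, those at 0 h (adjusted p = 0.00602), 24 h (0.0236) and 72 h (0.0388) were, among 4.34%, 4.99%, 7.32%, 4.81% and 5.36% of genes at the 5 times. In culture it was 2.84 at 0 h (adjusted p = 0.00131), 1.36 at 2 h (0.233), 1.45 at 8 h (0.0471), 1.99 at 24 h (0.0117) and 1.51 at 72 h (0.0653, or 0.0188 with the array number as a block). Without that array the 0 h value was 1.38 (adjusted p = 0.0989) and the other 4 were called, among 1.59%, 5.21%, 37.6%, 33.7% and 20.4% of genes. With all arrays, the call at 0 h was lost also without Treg number 2, that at 8 h without any of 3 arrays (Tconv number 1 and both Treg arrays) and under quantile normalization, and that at 24 h without Tconv number 1 or Treg number 1. The responses of Treg and Tconv to KT3 were not called different for Hif1a at any of the 8 comparisons, 0 of them at an unadjusted p under 0.05.

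**Figure D3:**
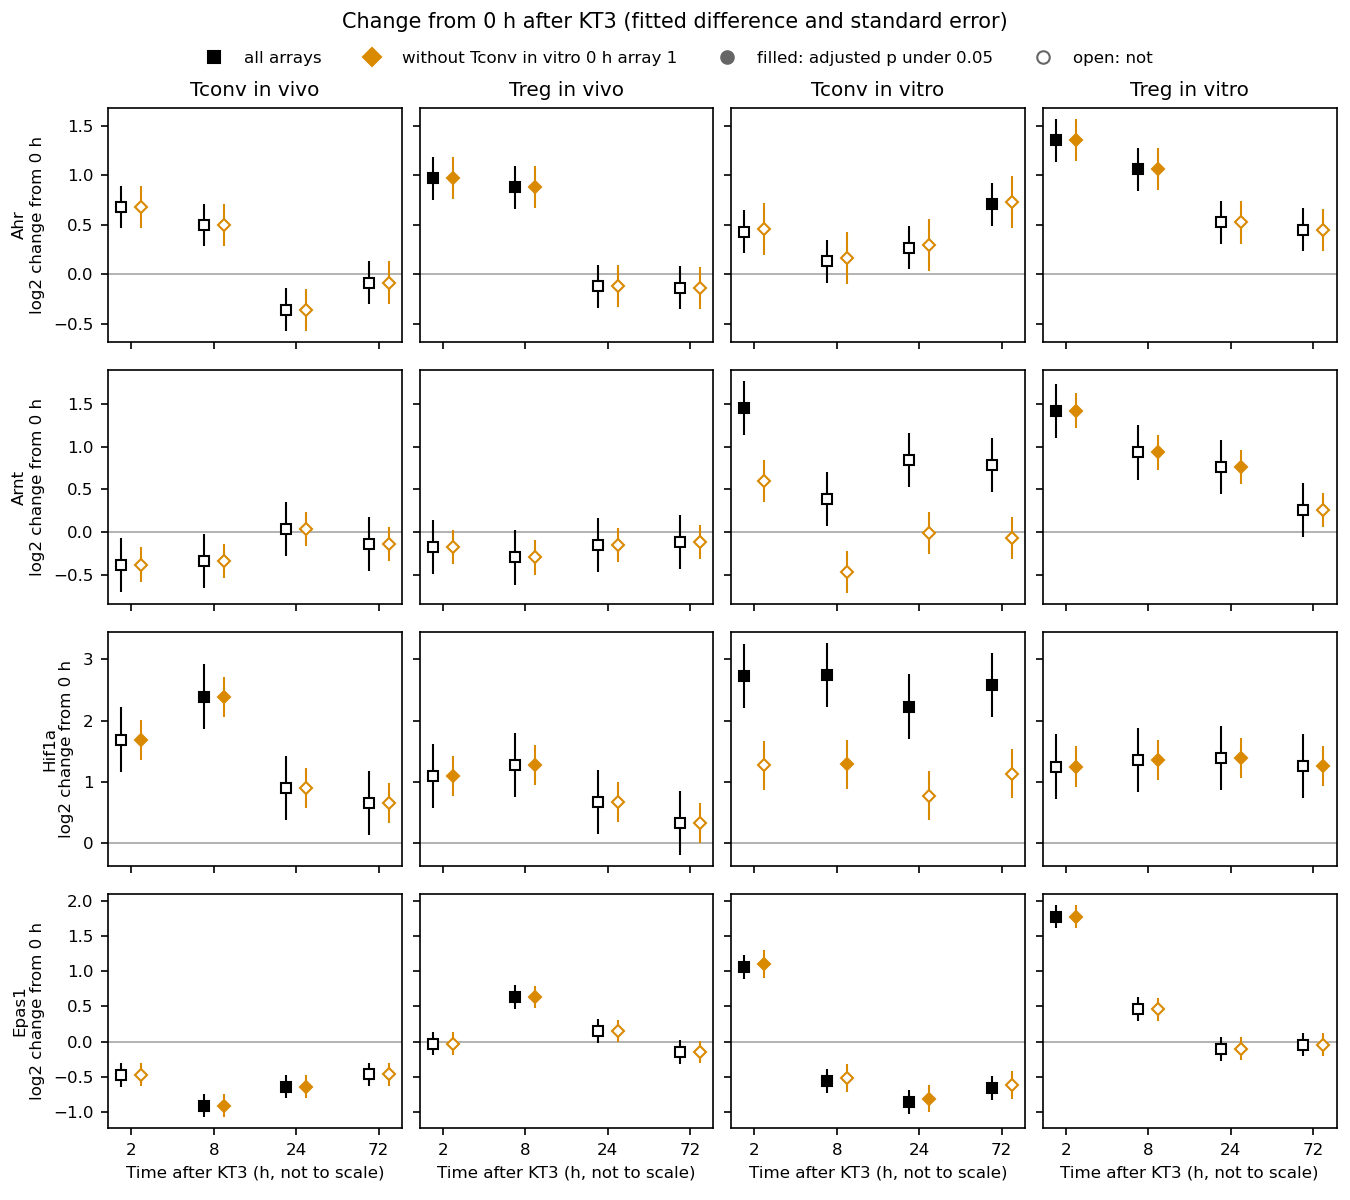
Fitted change from 0 h after KT3 (log2, bars are standard errors) of the 4 tested genes in each cell type and setting against time (categories, not to scale). Black squares use all arrays and orange diamonds leave out Tconv in vitro 0 h number 1, with filled symbols for an adjusted p under 0.05; Epas1 falls in Tconv and rises in Treg at 8 h in vivo and rises in both cell types at 2 h in vitro, and the Tconv in vitro changes of Hif1a and Arnt shrink without that array.

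Epas1, the HIF-2 alpha subunit, was lower in Treg than in Tconv before KT3, moved in opposite directions in the 2 cell types at 8 h in vivo, and rose in both at 2 h in culture. Tconv in vivo read 7.22 and 7.31 at 0 h, 6.76 and 6.82 at 2 h, 6.52 and 6.19 at 8 h, 6.68 and 6.57 at 24 h, and 6.89 and 6.70 at 72 h (log2 intensity). Treg in vivo read 6.00 and 6.22 at 0 h, 5.91 and 6.26 at 2 h, 6.72 and 6.77 at 8 h, 6.33 and 6.19 at 24 h, and 5.92 and 6.00 at 72 h. All Tconv arrays after KT3 lay below both 0 h arrays, and both Treg arrays at 8 h lay above all other Treg arrays in vivo. How many of all genes show such separations was not counted. The Tconv of the cultures read 7.25 and 7.16 at 0 h, 8.40 and 8.14 at 2 h, 6.76 and 6.54 at 8 h, 6.31 and 6.39 at 24 h, and 6.45 and 6.64 at 72 h. Cultured Treg read 6.45 and 6.28 at 0 h, 8.05 and 8.24 at 2 h, 6.82 and 6.83 at 8 h, 6.13 and 6.40 at 24 h, and 6.14 and 6.51 at 72 h. The 4 arrays at 2 h in culture stood above all other Epas1 values, while 21 of the 42 arrays read Epas1 under their own median, so its lower values lie near the dim end of the array.

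In Tconv in vivo, Epas1 fell by 0.91 ± 0.17 at 8 h (adjusted p = 0.000298), a call kept under all settings tried. At 24 h it fell by 0.64 (adjusted p = 0.0373), a call lost without any 1 of its 4 arrays and with median centring. In Treg in vivo, it rose by 0.63 at 8 h (adjusted p = 0.0162), by 0.72 and 0.55 on the arrays numbered 1 and 2, a call lost without Treg 0 h number 1 or either 8 h array. The test of the difference between the 2 responses at 8 h gave 1.54 ± 0.24 (adjusted p = 0.00185), a call kept under all settings tried, where 0.233% of genes were called. In culture the same difference at 8 h was 1.02 (adjusted p = 0.0423), a call that 22 of the 42 single omissions ended.

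In culture, Epas1 rose at 2 h by 1.78 ± 0.17 in Treg (adjusted p = 6.9e-08), a 3.43-fold higher intensity, and by 1.06 ± 0.17 in Tconv (adjusted p = 0.000102). Both calls were kept under all settings tried. It then fell below its 0 h level in Tconv, by 0.56 at 8 h (adjusted p = 0.0211), 0.86 at 24 h (adjusted p = 0.00202) and 0.66 at 72 h (adjusted p = 0.0193). The 24 h call was kept without any 1 array, the 8 h call was lost without the array that stood apart or Tconv 8 h number 2, and the 72 h call without the array that stood apart or either 72 h array. The later differences in Treg in vitro were 0.46, -0.10 and -0.04, not called.

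Against the responses of injected mice, the 2 h response of Epas1 in culture was larger by 1.81 ± 0.24 in Treg (adjusted p = 3.82e-05) and by 1.54 ± 0.24 in Tconv (adjusted p = 0.000459). Both were kept without any 1 array and under all settings tried. At 8, 24 and 72 h the differences between settings ran from -0.25 to 0.35, with 0 of 6 called.

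Between cell types, Epas1 was lower in Treg in vivo by 1.15 ± 0.17 at 0 h (adjusted p = 5.75e-05), a call kept under all settings tried. The Treg minus Tconv difference was -0.71 at 2 h (adjusted p = 0.0137) and -0.83 at 72 h (adjusted p = 0.00296). The 2 h call was lost without either Tconv array or Treg number 1, and the 72 h call without Tconv or Treg number 1. At 8 h the difference was 0.39 and at 24 h -0.36, neither called. In culture it was -0.84 at 0 h (adjusted p = 0.00263), lost without Treg number 2, and between -0.22 and 0.18 afterwards, with 0 of 4 called or at an unadjusted p under 0.05.

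Since Epas1 is known from endothelium, the endothelial markers are given beside it. Cdh5, Kdr, Tek and Emcn, which define that cell type, were too dim to be tested, above the array median on 1, 0, 0 and 0 of the 42 arrays. Vwf, another gene of endothelium, was tested and lay between 6.08 and 7.89, above the array median on 13 arrays. With all arrays, the 1 that stood apart at 0 h included, it was 0.79 lower at 2 h in cultured Tconv (adjusted p = 0.0217), where Epas1 rose. The mean log2 over the 6 markers was there 6.79 and 6.36 at 0 h (arrays 1 and 2) and 6.21 and 6.36 at 2 h. For Vwf the change was -0.23 in cultured Treg at 2 h and -0.14 in Treg at 8 h in vivo, not called. Pecam1, which T cells also express, made up most of the summed signal. The sum over the 6 markers was 1294 and 1240 in Tconv in vivo at 0 h and 493 and 427 at 8 h, and in culture 858 and 1138 at 0 h and 1167 and 1115 at 2 h in Tconv and 892 and 1041 against 1118 and 1114 in Treg. Pecam1 changed by -2.18 at 8 h in Tconv in vivo (adjusted p = 7.82e-05) and by -1.17 in Treg (adjusted p = 0.035), in which Epas1 rose. The part of these cells in the Epas1 results was not tested.

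Stromal markers (Col1a1, Col3a1, Dcn and Pdgfrb) were high on 1 array of each of the 2 Treg groups in which Epas1 rose. Their sum was 271 and 1015 in Treg in vivo at 8 h (arrays 1 and 2), against 296 and 376 at 0 h, and 308 and 812 in Treg in vitro at 2 h, against 404 and 318 at 0 h. On the arrays numbered 1, whose stromal sums were no higher than at 0 h, Epas1 was higher than at 0 h by 0.72 in vivo and by 1.60 in vitro, against 0.55 and 1.96 on those numbered 2. Each of these differences rests on 1 array per group, and the part of stromal cells in the Epas1 results was not tested.

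The IgG arrays, 1 per cell type at 24 h, read 6.89 and 7.76 for Ahr, 9.00 and 9.10 for Arnt, 9.52 and 10.61 for Hif1a, and 7.29 and 6.48 for Epas1 in Tconv and Treg. They differed from the 0 h means by -0.29 to 0.37. Of the 16 comparisons of KT3 or 0 h with IgG at these genes, limma called 0, and 1 had an unadjusted p under 0.05: Epas1 in Tconv 24 h after KT3, -0.66 against IgG (adjusted p = 0.165). Over all genes, 1.47% and 0.274% were called for KT3 against IgG in Tconv and Treg, and 0% for IgG against 0 h in each. The lone IgG array of a cell type was assumed to vary like the other groups.

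Across the 20 group means of 0 h and KT3, Ahr ran most like Hif1a among these genes (Pearson r = 0.81, or 0.86 with Tconv in vitro 0 h from array 2 alone), Arnt correlated with Ahr at 0.66 (0.62 so) and with Hif1a at 0.65 (0.50 so), and Epas1 with Hif1a at -0.28 (-0.27 so). These group means share arrays and 0 h controls, and the values are descriptions. Over all 12425 genes, the 4 whose group means followed Ahr most closely were Egln3 (r = 0.92), which encodes a prolyl hydroxylase of the HIF alpha subunits, Nfil3 (0.91), which encodes a bZIP transcription factor, Samsn1 (0.91) and Casp4 (0.91), which encodes an inflammatory caspase. Egln3 was higher in Treg at 2, 8 and 72 h in vivo (by 1.01, 0.99 and 1.24). In vitro it was higher at 2, 8, 24 and 72 h (by 1.23, 1.58, 1.10 and 1.40). It was not called higher at 0 h (0.59 and 0.57), and its 24 h value in vivo is not given. Of all genes, 3.27% to 23.8% were called in either direction where Egln3 was higher. Since Egln3 was picked for its likeness to Ahr over these same group means, a Treg excess comes with the choice and is no separate result. Those nearest Arnt were Tut4 (0.96), Herpud2 (0.96), Zc3hav1 (0.96) and Nr3c1 (0.96), the glucocorticoid receptor gene. Those nearest Hif1a were Adss (0.96), Fbxw11 (0.96), Nupl1 (0.95) and Cep43 (0.95), and for the last pair r fell to 0.91 without the array that stood apart. Those nearest Epas1 were Dusp10 (0.89), which encodes a MAP kinase phosphatase, Map1lc3a (0.83), Heatr5a (0.83) and Nr4a2 (0.83), an early nuclear receptor gene. Their rank correlations with Epas1 were 0.78, 0.61, 0.33 and 0.54.

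The genes around the receptor were then read as lists. Of 7 AHR target genes, Tiparp, the gene of an ADP-ribosyltransferase, was the 1 tested, and Cyp1a1, Cyp1a2, Cyp1b1, Nqo1 and Aldh3a1 were dim; Cyp1a1, the classic target, lay between 4.51 and 6.16 and above the array median on 0 arrays. Tiparp lay between 6.03 and 7.84 and was called by limma in 0 of the 46 comparisons, with 2 at an unadjusted p under 0.05 and differences between -0.78 and 1.04. Ahr itself was called higher in Treg at 9 of the 10 times and settings, where 3.1% to 23.8% of all genes were called in either direction. The calls at 0 h and 72 h in vivo and at 0 h and 24 h in vitro each depended on single arrays.

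The chaperones that hold the receptor, Hsp90aa1 and Ptges3, rose at 8 h in Tconv in vivo, by 2.11 and 1.35, where 14.4% of all genes were called higher, and Hsp90aa1 rose by 1.79 in Treg, where Ptges3 differed by 1.03 and was called without the array that stood apart. For cultured Tconv, they were called at 2 h (1.58 and 1.33) and 8 h (2.48 and 1.89) with all arrays, where 19.5% and 15.7% of all genes were called higher, and neither was called at any time without the array that stood apart (0.18 and 0.05 at 2 h).

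Of 9 tested T cell genes linked to AHR, 2 were higher at 8 h in Tconv in vivo, where 14.4% of all genes were called higher, a share near that of the list. There Il21, a cytokine gene of helper cells, was 2.25 higher at 2 h and 4.90 higher at 8 h, and Maf, a transcription factor gene, was 1.39 higher at 8 h. Of the same 9, 3 were higher in Treg in vivo at 8 h, namely Il21 (1.60), Il23r (1.18) and Il10 (1.14), where the list's median change was 0.00 and 6.36% of all genes were called higher. At 2 h in those Treg, Il23r was 2.03 higher and Il10 1.12 higher, and Gpr15, a homing receptor gene, was 0.85 lower, where 5.04% of all genes were called higher and 1.42% lower. In cultured Treg, Il10, an inhibitory cytokine gene, was 2.45 higher at 2 h, and Il23r was 0.73, 1.24 and 1.63 higher at 8, 24 and 72 h. Il21, Il23r, Gpr15 and Il10 were above the array median on 4, 4, 3 and 7 arrays. They could enter the tested set only through those few arrays, where they were high. Calls that involve those arrays thus follow in part from the filter and are given as descriptions. Mean log2 intensity of Il21 reached 9.59 in Tconv in vivo at 8 h. In Treg in vivo it went from 4.20 to 5.81, under those arrays' medians (6.48 and 6.58). Il23r in cultured Treg went from 4.89 to 5.62, 6.13 and 6.52 at 8, 24 and 72 h. These Treg changes of Il21 and Il23r thus lie at the dim end of the array. Entpd1, the gene of CD39, chosen after its values were seen, was higher in Treg at all 10 comparisons, by 1.59 to 2.62. Over all genes, 3.1% to 23.8% were called in either direction there. The other genes of the list are not given for this comparison, so the value of Entpd1 says nothing about the list.

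The hydroxylases and the VHL complex that govern HIF alpha protein were all 9 measurable. In vivo, 1 of 9 rose in Tconv at 8 h (Cul2, a scaffold of the complex, by 1.46) and 0 of 9 in Treg at any time, with 3 of the 9 at an unadjusted p under 0.05 at 8 h. Of all genes, 14.4% were called higher in Tconv and 6.36% in Treg at 8 h, so these counts do not exceed the background. Without the array that stood apart, 3 and 1 of the 9 were called higher at 8 h. The list's median change at 8 h was 0.39 in Tconv and 0.44 in Treg, against -0.06 and -0.02 over all genes. In cultured Treg, Cul2 (1.73), Egln3 (1.01) and Hif1an (0.97), the gene of the asparaginyl hydroxylase, rose at 2 h, against 4.02% of all genes called higher. For cultured Tconv, 5, 4, 6 and 2 of the 9 were called higher at 2, 8, 24 and 72 h with all arrays, against 19.5%, 15.7%, 19.4% and 6.65% of all genes. Without the array that stood apart the counts were 1, 1, 0 and 0, among 4.98%, 10.3%, 1.29% and 1.08% of all genes called in either direction; Hif1an was the 1 still called at 2 h (0.84) and 8 h (0.76).

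Among HIF targets of glycolysis, Hk2, Pgam1 and Ldha were called higher at 2 h in vivo, by 1.40, 1.30 and 0.91 in Tconv and by 2.95, 0.93 and 0.90 in Treg. Of all genes, 3.04% and 5.04% were called higher there. At 8 h in vivo these targets rose in both cell types, and a tie to the level of Hif1a was not tested. Of 16 tested, 10 were higher in Tconv, with 14.4% of all genes called higher, and the list's median change was 1.09 against -0.06 over all genes; the largest were Tpi1 (2.67), Hk2 (2.25), Pgam1 (1.88) and Pfkl (1.62), enzymes of glycolysis. In Treg, 8 were higher and 1 lower, with 6.36% of all genes called higher and a list median of 0.98, led by Hk2 (2.54), Tpi1 (2.17), Pgam1 (1.40) and Pgk1 (1.39). At 24 h in vivo 0 of 16 were called in either cell type, with 3 in Tconv and 7 in Treg at an unadjusted p under 0.05, and at 72 h 0 of 16, with 1 in each. Slc2a3, a glucose transporter gene, was lower in Treg at 2 h in vivo (-1.04) and at 2 h and 8 h in vitro (-1.03 and -1.26).

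Of the 16 glycolysis genes, 1, 1, 4 and 11 were higher in cultured Treg at 2, 8, 24 and 72 h (1, 2, 5 and 11 without the array that stood apart), against 4.02%, 4.52%, 5.01% and 7.34% of all genes. At 72 h, Tpi1 (2.91), Slc16a3 (2.66), the lactate exporter gene, Pgk1 (2.13) and Pgam1 (1.98) led and the list's median was 1.13. For cultured Tconv, 2, 8, 9 and 9 were higher with all arrays, against 19.5%, 15.7%, 19.4% and 6.65% of all genes, so the 2 h share lay below the background. Without the array that stood apart, 0, 3, 0 and 3 were higher, with 4.98%, 10.3%, 1.29% and 1.08% of all genes called in either direction. The median changes at 8, 24 and 72 h were 0.72, 0.78 and 0.91 with it and 0.59, 0.58 and 0.54 without it. At 2 h, Hk2, the hexokinase gene, was 2.95 higher in Treg in vivo and was not called in Treg in vitro, and the difference of the 2 responses was -3.01 ± 0.48 (adjusted p = 0.000353).

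Of 19 other HIF targets tested, Bhlhe40, the gene of a bHLH repressor, was the steadiest: it was higher in Treg at 2, 8 and 24 h in vivo (1.87, 1.81 and 2.09) and at all 4 times in vitro (3.06, 2.62, 2.61 and 2.90), and in Tconv at 2 h and 8 h in vivo (1.95 and 2.63) and at all 4 times in vitro (2.07, 1.96, 2.05 and 1.82, each called without the array that stood apart too). Tfrc, the transferrin receptor gene, rose at 2 h in vivo in Tconv (2.76) and Treg (2.22). Over the list, 4 of 19 were higher and 2 lower in Tconv at 8 h in vivo, against 14.4% and 6.54% of all genes. Mxi1, the gene of a MYC antagonist, was 0.59 lower in Treg at 2 h in vivo and 2.02 higher in Treg at 2 h in vitro, a difference of responses of 2.62 ± 0.25 (adjusted p = 4.66e-07).

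The 4 HIF cofactors were little called: Cited2, whose product competes with HIF alpha for its coactivators, fell by 0.89 in Tconv at 8 h in vivo and by 0.74 at 8 h in vitro (by 1.38 without the array that stood apart), where 6.54% and 3.22% of all genes were called lower. Among 10 tested genes of other bHLH-PAS factors, the clock genes Per1 and Per2 rose at 2 h in vivo in Tconv (1.51 and 0.64) and Treg (0.88 and 0.72), where 3.04% and 5.04% of all genes were called higher, and Per1 rose at 2 h in vitro in Treg (2.18) and Tconv (2.41, or 2.24 without the array that stood apart). Per1, like Epas1 and Arnt, had a larger 2 h response in culture than in mice in Treg, by 1.30 ± 0.32 (adjusted p = 0.0202).

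**Figure D4:**
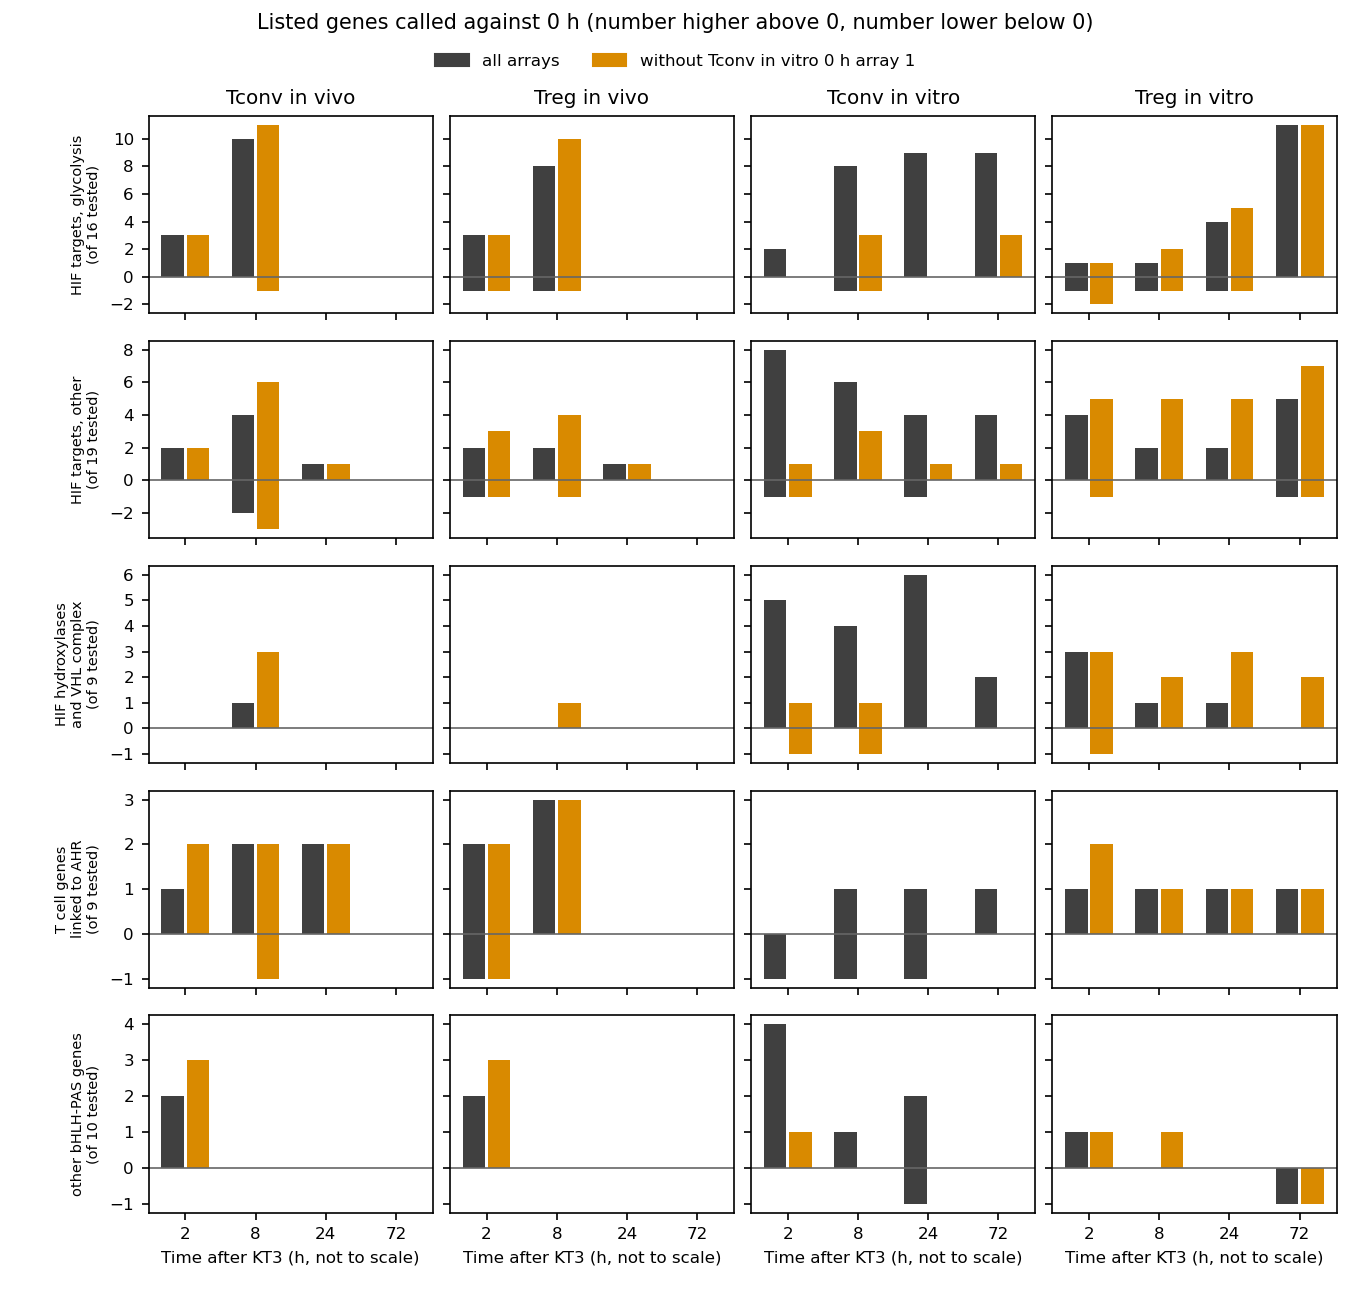
Number of listed genes with an adjusted p under 0.05 against 0 h, higher drawn above 0 and lower below 0, by time (categories, not to scale) for 5 lists in each cell type and setting. Grey bars use all arrays and orange bars leave out Tconv in vitro 0 h number 1; glycolysis genes peak at 8 h in vivo (10 and 8 of 16) and at 72 h in Treg in vitro (11 of 16), and most Tconv in vitro counts shrink without that array.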

How the data were processed

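RNA of 42 samples was read on Affymetrix ST1.0 gene arrays. The authors deposited linear intensity values, 1 for each cluster of probes on each array; per the series' design text and the submitters' processing notes, it was made with RMA and Affymetrix Power Tools, so values are background-corrected and summarized over probes. Of 24922 clusters, 21425 carried 1 gene symbol, 1399 several and 2098 none listed; clusters of several symbols or none were left out, and the brightest cluster stood for each symbol. No offset was added before log2 was taken of the deposited intensity, and genes above the array median on fewer than 2 arrays were not tested. The fit used limma 3.58.1 (lmFit, contrasts.fit, eBayes; R 4.3.3) with 22 group means, 20 residual degrees of freedom and Benjamini-Hochberg adjustment over 12425 genes per contrast, and was tested on simulated data. The number of arrays limits the precision. Named genes are the 5 members, Foxp3, the markers, and up to 4 called genes of largest change per list and response. Added to these are the 4 of highest Pearson correlation with each tested member, among the symbols ranked as given above. Exceptions are marked. Members and lists were chosen with earlier results of these data known. RefSeq tables gave promoters (GRCm38.p6). Alternatives were other scalings, offsets and filters, a sort covariate, each setting alone, a replicate block and single-array omissions; leaving out the 3 in vitro arrays of narrowest range, and the list counts and likeness without 1 array, were added after the data were seen.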

Additional observations from a re-analysis of the deposited data

Results flagged for a closer look

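The Treg minus Tconv difference of the Epas1 response at 8 h was called, at 1.54 in vivo and 1.02 in vitro (log2). The difference between the in vitro and in vivo responses at 2 h was called for Arnt, at 1.84 in Tconv and 1.60 in Treg. It was also called for Epas1, at 1.54 in Tconv and 1.81 in Treg. Each is a test of the difference between groups itself by limma, and the Arnt value in Tconv fell to 0.98 (adjusted p = 0.142) without Tconv in vitro 0 h number 1.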

How the results depend on the processing

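Of 184 values of the 4 tested genes, 45 were called, 29 of these under all 11 other settings, and 17 also without any 1 array; 0 called values changed sign, against 43 sign changes of uncalled values. With each setting fitted by itself, calls numbered 12 for responses in vivo (6 with all arrays together), 8 for responses in vitro (14), 13 for Treg minus Tconv in vivo (8), 6 in vitro (11) and 1 for the Treg and Tconv response differences (2); in vitro minus in vivo could not be fitted so. Without the 3 in vitro arrays of narrowest range, chosen after the data were seen, they were 11, 7 and 1 for both response families and the response differences. Quantile normalization gave 4 response differences and no dim filter 1. Leaving out 1 array gave 4 to 9 (responses in vivo), 11 to 23 (in vitro), 6 to 11 (Treg minus Tconv in vivo), 7 to 14 (in vitro), 1 to 13 (response differences), 2 to 12 (in vitro minus in vivo) and 0 (IgG); without Tconv in vitro 0 h number 2, which leaves the array that stood apart alone at 0 h, all these counts but the last were at their highest. Differences of the array medians between groups ran from -0.20 to 0.03, with 13 of 26 over 0.1 in size. Median centring subtracts them, so most of the 26 group differences of a gene went up, and it cost 3 calls and added 2. The mean of all clusters is the same value, since each gene had 1. Dim values of Ahrr and Epas1 limit what can be resolved.

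With the array number as a replicate block, calls numbered 7, 16, 8, 12, 2, 4 and 0 in the order above, with 0 lost and 4 gained (3 of Hif1a and 1 of Arnt, given in the text). The number goes with sex and age in culture and largely with the sort in vivo, and the labels do not say that arrays of 1 number share an animal: 32 of 45 group pairs in vivo and 28 of 45 in vitro deviated together (r over 0.1), down to -0.17 and -0.45, though in 10 of 10 groups of each setting arrays were on average closer to their own number.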
